A study of Mus musculus with 2 samples.

Results

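The genes described here are 8 that build or mark the barriers around a nerve: the tight junction genes *Cldn5*, *Cldn1*, *Ocln* and *Tjp1*, the transporter genes *Slc2a1*, *Abcb1a* and *Mfsd2a*, and *Plvap*, a gene of permeable vessels. They were taken by symbol from the 32285 genes counted in the series, and each symbol matched 1 gene. Their unique molecular identifiers (UMIs, each standing for 1 captured transcript) were followed across 9 cell types of the dorsal root ganglion (DRG). The series held 2 samples of dissociated L4 and L5 DRGs from naive female C57BL/6 mice, 3 months of age, called replicate 1 and replicate 2. Live single cells had been sorted and captured with a droplet-based 3' kit, so the data hold cells that survived papain and collagenase, and no treated group. How many animals went into a replicate was not stated in the sources used here, and each p-value measures only the spread between these 2 samples.

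Walls of different kinds keep blood and tissue fluid away from nerve fibers. Endothelial cells of barrier vessels seal their contacts with claudin-5, occludin and the scaffold ZO-1 (from *Tjp1*), carry glucose through GLUT1 (from *Slc2a1*), pump drugs and other compounds back into the blood through P-glycoprotein (from *Abcb1a*), and take up lysophospholipids through MFSD2A, which is also known to restrain transcytosis. PLVAP forms the diaphragms of fenestrae and caveolae and is a textbook marker of leaky vessels, while perineurial cells, the flat sheath cells around nerve fascicles, use claudin-1 in their own tight junctions. Vessels in the cell body area of the DRG are known to be more permeable than those of nerve fascicles.

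The positions of the members were read from the GENCODE M21 annotation of GRCm38. *Cldn5* (chr16:18776847-18778262, plus strand) has 1 exon, and *Cldn1* lies on the same chromosome (chr16:26356642-26371841, minus strand). *Ocln* lies at chr13:100496507-100552718 (minus strand) and *Tjp1* at chr7:65296165-65527781 (minus strand). *Slc2a1* (chr4:119108711-119137983, plus strand) and *Mfsd2a* (chr4:122946850-122961188, minus strand) share chromosome 4, and *Abcb1a* lies at chr5:8660077-8748575 (plus strand). *Plvap* (chr8:71497765-71511752, minus strand) overlaps *Gtpbp3* on the other strand, *Slc2a1* overlaps the antisense genes *Gm12867* and *Gm12868*, and *Tjp1* and *Abcb1a* overlap the predicted genes *Gm44795* and *Gm42686*, also on the opposite strand. On the same strand, *Tjp1* overlaps *Gm44794* and *Gm44792*, *Abcb1a* overlaps *Gm42684*, and *Slc2a1* overlaps *Mir1957a*, partners that strand does not separate. The strand setting of the counting was not given in the sources used here. Whether UMIs of partners on the opposite strand were kept apart was therefore not tested. Reads of *Abcb1a* may also be split with its close paralog *Abcb1b*. The 3' kit reads the end of the last exon, so exon use was not measured.

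RefSeq promoter windows of GRCm38.p6 (250 bases before to 50 after a start) were found for 7 of the 8 members, not for *Plvap*. They were searched on both strands for CTTTGA, a core of TCF/LEF sites, the nuclear end of Wnt signaling, and for AGGAAG, a core of ETS sites, a factor family of endothelial genes. The 250 bases before the start are shown for 3 members that were highest in the endothelium and differed between its cells, with the matched letters of either strand in capitals.
*Cldn5* (chr16:18776597-18776846, plus strand): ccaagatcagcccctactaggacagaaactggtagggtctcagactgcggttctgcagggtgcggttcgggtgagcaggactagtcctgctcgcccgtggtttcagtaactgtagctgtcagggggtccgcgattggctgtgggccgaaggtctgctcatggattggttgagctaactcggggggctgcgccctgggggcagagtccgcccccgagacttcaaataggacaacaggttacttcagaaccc
*Abcb1a* (chr5:8566841-8567090, plus strand): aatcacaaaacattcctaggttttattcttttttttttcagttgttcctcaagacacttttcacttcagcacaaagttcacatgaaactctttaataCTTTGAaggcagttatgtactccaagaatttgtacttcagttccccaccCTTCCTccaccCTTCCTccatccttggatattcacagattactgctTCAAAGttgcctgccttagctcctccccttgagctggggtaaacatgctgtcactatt
*Mfsd2a* (chr4:122961189-122961438, minus strand): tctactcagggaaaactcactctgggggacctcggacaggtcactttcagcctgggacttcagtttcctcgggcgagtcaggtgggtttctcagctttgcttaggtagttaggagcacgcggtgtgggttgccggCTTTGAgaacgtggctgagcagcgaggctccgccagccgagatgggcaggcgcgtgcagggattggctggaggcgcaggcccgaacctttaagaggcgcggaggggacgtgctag
The window of *Abcb1a* held 2 matches to the TCF/LEF core and 2 to the ETS core, and that of *Mfsd2a* held 1 to the TCF/LEF core. None of the windows of *Cldn5*, *Cldn1*, *Ocln*, *Tjp1* and *Slc2a1* held either. Over 32851 promoters of the same length, 16.0% held the TCF/LEF core and 35.4% the ETS core, so a match is common and is given as a description only. The *Abcb1a* window ends at chr5:8567140 and belongs to a RefSeq start far before the GENCODE gene start at chr5:8660077. Its matches therefore do not lie next to the annotated start of the counted gene. The *Tjp1* window (chr7:65371195-65371494, minus strand) lies inside the GENCODE gene, far from its start at chr7:65527781, and does not describe that start either.

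Cells were clustered without the 8 members and without the barrier gene lists used below, and clusters were named from marker genes. The 9 types held 6791 SGCs, 3390 myelinating and 1407 non-myelinating Schwann cells, 1043 fibroblasts, 686 mural cells, 357 endothelial cells (172 and 185 in replicates 1 and 2), 354 macrophages, 165 perineurial-like cells (57 and 108) and 108 neurons. Of the endothelial cells 97.1% and 97.3% had UMIs of both *Flt1* and *Pecam1*, and of the perineurial-like cells 96.5% and 90.7% had UMIs of *Igfbp6* with *Itgb4* or *Perp*, against 18.9% and 25.5% of fibroblasts. The perineurial-like cells were led by *Thbs4*, *Itgb4*, *Itga6* and *Cav1*. Levels are UMIs scaled to a total of 1000000 (CPM) of the summed cells of a type, scaled with TMM factors. RNA of empty droplets made up at most an estimated 3.07% of the UMIs of a type. The libraries shared 135 cell barcodes.

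All 8 members passed the filter on low counts across the types, and 7 of them were higher in the endothelium than in the other types on average. The endothelium and the perineurial-like cells held the highest level of every member: *Cldn5*, *Tjp1*, *Slc2a1*, *Abcb1a*, *Mfsd2a* and *Plvap* peaked in the endothelium, and *Cldn1* and *Ocln* in perineurial-like cells. Among pairs of neighbors in the order of levels, 8 pairs for each gene, the number that differed ranged from 1 for *Cldn5* and *Plvap* to 5 for *Tjp1*, where 48.3% of all tests of gene and pair over the 32 pairs of types involved were past the threshold.

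**Figure D1:**
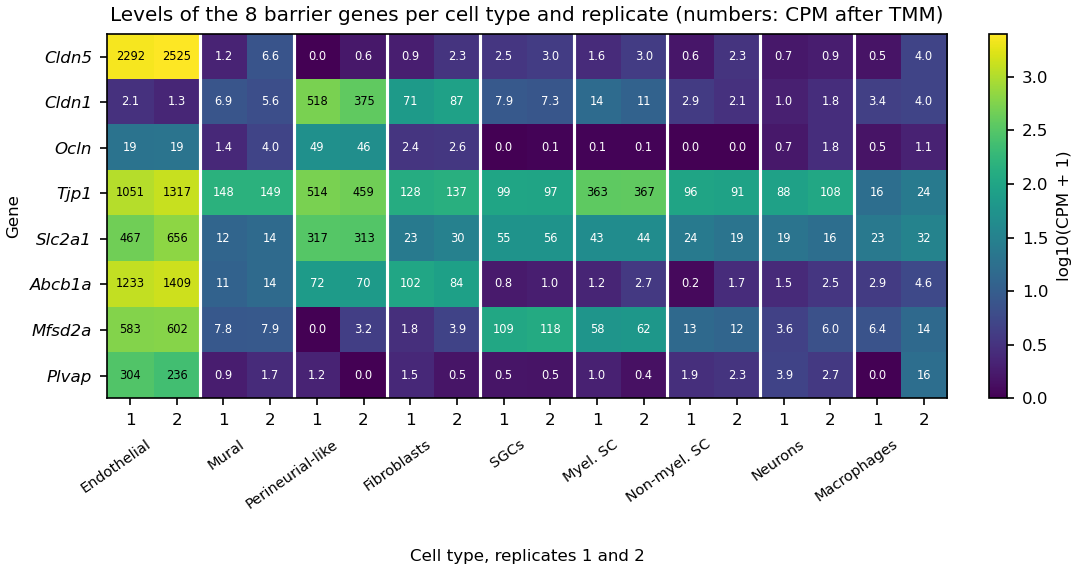
Heat map of the levels of the 8 members (rows) in 9 cell types, replicates 1 and 2 side by side, with the color on a log10(CPM + 1) scale and CPM after TMM printed in each tile. The endothelial columns are brightest for 6 genes, and the perineurial-like columns for *Cldn1* (518 and 375 CPM) and *Ocln* (49.4 and 46.4 CPM).

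*Cldn5*, the main claudin of barrier endothelium, was at 2292 and 2525 CPM in endothelial cells of replicates 1 and 2. In the other 8 types it lay between 0 and 6.61 CPM in any sample. Empty droplets held 54.9 and 68.7 CPM, and their estimated contribution to a type was at most 2.11 CPM. The endothelium thus stood apart in both samples, and no other pair of neighboring types differed. Perineurial-like cells had 1 UMI of *Cldn5* in all, against 17170 in the endothelium, a ratio of 5413 with an interval of 971 to 213823 that covers counting error only.

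*Cldn1* gave the opposite picture. It was at 518 and 375 CPM in perineurial-like cells (mean 447 ± 101, SD, n = 2), at 70.6 and 86.9 CPM in fibroblasts, and at 14.4 and 10.8 CPM in myelinating Schwann cells. These 3 types differed from each other step by step, and so did myelinating Schwann cells from SGCs (7.86 and 7.26 CPM). The endothelium was near the bottom, with 2.08 and 1.33 CPM, 12 UMIs in all, and did not differ from neurons at 1.02 and 1.77 CPM (adjusted p = 0.73). Per UMI counted, *Cldn1* was 267-fold (counting interval 152 to 519) higher in perineurial-like than in endothelial cells.

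*Ocln*, which encodes the tight junction protein occludin, was counted with few UMIs throughout. Perineurial-like cells had 49.4 and 46.4 CPM and endothelial cells 18.8 and 19.2 CPM, with SDs of 2.14 and 0.319 over the 2 samples. Both were above the 3.39 and 3.65 CPM of empty droplets, and no sample of the other 7 types exceeded 3.97 CPM. Non-myelinating Schwann cells had no UMI of *Ocln* in either sample, and SGCs had 4 in all.

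*Tjp1*, whose product ZO-1 ties junction proteins to actin, was the most broadly found of the junction genes. It was at 1051 and 1317 CPM in the endothelium, 514 and 459 CPM in perineurial-like cells, and 363 and 367 CPM in myelinating Schwann cells, and each of these 3 steps down differed. Mural cells (148 and 149 CPM) and fibroblasts (128 and 137 CPM) did not differ from each other (adjusted p = 0.35), nor did SGCs, neurons and non-myelinating Schwann cells as neighbors, which lay between 87.7 and 108 CPM. Macrophages were lowest, at 16.2 and 24.5 CPM.

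Among the transporters, *Slc2a1*, the glucose transporter gene, was at 467 and 656 CPM in the endothelium and at 317 and 313 CPM in perineurial-like cells. The 2 types differed by 0.84 on the log2 scale (SE 0.14, adjusted p = 9.3e-05), perineurial-like cells in turn differed from SGCs at 54.8 and 55.5 CPM, and mural cells were lowest at 11.8 and 14.2 CPM. *Abcb1a*, the drug efflux pump, was at 1233 and 1409 CPM in the endothelium, 102 and 83.7 CPM in fibroblasts and 72.3 and 69.6 CPM in perineurial-like cells. Fibroblasts and perineurial-like cells did not differ in *Abcb1a* (adjusted p = 0.21), both were above mural cells (10.9 and 14.2 CPM), and the remaining 5 types had at most 4.55 CPM in a sample.

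*Mfsd2a*, the lysophospholipid transporter, had a different order from the other transporters, because glia followed the endothelium. It was at 583 and 602 CPM in the endothelium, 109 and 118 CPM in SGCs, 58.2 and 62.3 CPM in myelinating Schwann cells, and 13.5 and 12.02 CPM in non-myelinating Schwann cells, and each step differed. Empty droplets held 110 and 108 CPM of *Mfsd2a*, as much as SGCs, yet their estimated contribution to the SGC level was 1.11 and 1.58 CPM. Perineurial-like cells were lowest, with no UMI in replicate 1 and 5 UMIs (3.22 CPM) in replicate 2.

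*Plvap* was at 304 and 236 CPM in the endothelium (mean 270 ± 48.2, SD, n = 2) and at most 3.90 CPM in every sample of the other types apart from macrophages of replicate 2. Macrophages had no *Plvap* UMI in replicate 1 and 28 UMIs (15.9 CPM) in replicate 2. The endothelial share of cells with a *Plvap* UMI was 63.4% and 57.8%, against 0.747% and 0.785% of SGCs, taken as cells that should lack the gene, at median depths of 16170.5 and 17686 UMIs in the endothelium and 14715.5 and 15709 in SGCs. After each cell was thinned to 1000 UMIs the shares were 23.8% (95% exact binomial interval 17.7% to 30.9%) and 23.2% (17.4% to 30.004%) of endothelial cells and 0.0862% and 0.0604% of SGCs.

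The first comparison asked how the vessel wall differs from the other cells. Over all 17808 genes tested with edgeR's quasi-likelihood test, 27.7% were higher and 23.6% lower in the endothelium relative to the average of the rest, against 7 and 1 of the 8 members. The log2 differences of the members called higher were 10.55 (SE 0.14) for *Cldn5*, 7.86 (SE 0.10) for *Abcb1a*, 7.65 (SE 0.20) for *Plvap*, 5.76 (SE 0.10) for *Mfsd2a*, 4.94 (SE 0.32) for *Ocln*, 3.97 (SE 0.09) for *Slc2a1* and 3.23 (SE 0.07) for *Tjp1*. *Cldn1* was lower by 2.73 (SE 0.39). With types that had no UMI set to 3 counts over both samples, the difference of *Ocln* was 4.42. Since the clusters were drawn on the same cells, these p-values do not include the choice of clusters.

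For perineurial-like cells against the mean of the other types, 15.6% of genes were higher and 13.1% lower. Of the members 5 were higher and 1 was lower. *Ocln* (6.43, SE 0.34, and 6.00 with types at 0 set to 3 counts) and *Cldn1* (6.28, SE 0.13) had the largest log2 differences, followed by *Abcb1a* (3.11, SE 0.22), *Slc2a1* (3.02, SE 0.12) and *Tjp1* (1.78, SE 0.09). *Mfsd2a* was lower by 3.39 (SE 0.51), a call that was lost with cells taken by their own marker UMIs (-0.45, adjusted p = 1). *Plvap*, with 1 UMI in these cells, was not called (adjusted p = 0.32). *Cldn5*, also with 1 UMI, had a log2 difference of -3.45 (adjusted p = 0.070) that passed the threshold when the replicate was added as a block (-3.50, adjusted p = 0.031). Without replicate 2 the value of *Cldn5* was -7.63 and that of *Mfsd2a* -10.48, because replicate 1 had no UMI of either in these cells.

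Set against each other, the 2 barriers divided the members. Over all genes 20.9% were higher and 18.5% lower in endothelial than in perineurial-like cells, against 6 and 2 members. *Cldn5*, *Plvap* and *Mfsd2a* had 1, 1 and 5 UMIs in perineurial-like cells, and their ratios were 5413 (given above), 601 (counting interval 108 to 23734) and 266 (114 to 819). *Abcb1a* was higher in the endothelium by 4.22 (SE 0.18), *Tjp1* by 1.29 (SE 0.12) and *Slc2a1* by 0.84 on the log2 scale. *Cldn1* and *Ocln* were lower in the endothelium, by 8.01 (SE 0.26) and 1.33 (SE 0.34, adjusted p = 0.0040). When perineurial-like cells were instead taken one by one from their *Igfbp6*, *Itgb4* and *Perp* UMIs, the difference of *Ocln* was -0.21 (adjusted p = 0.71).

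The nearest connective tissue type was compared next. Against fibroblasts, perineurial-like cells had 7.19% of genes higher and 11.3% lower, and 4 members higher and none lower. The log2 differences were 4.26 (SE 0.40) for *Ocln*, 3.54 (SE 0.17) for *Slc2a1*, 2.47 (SE 0.14) for *Cldn1* and 1.87 (SE 0.13) for *Tjp1*. *Abcb1a* differed by -0.39 (SE 0.20, adjusted p = 0.21), and this value became 1.37 (adjusted p = 1.4e-04) with cells taken by their own marker UMIs.

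The fibroblasts themselves were not uniform in *Abcb1a* and *Cldn1*. Fibroblasts fell into 5 subsets, described here without a test and in CPM of all UMIs without TMM factors. *Abcb1a* was at 296 and 298 CPM in the *Slc26a7*-led subset, 242 and 203 CPM in the *Dio2*-led subset and 97.7 and 120 CPM in the *Pi16*-led subset, but at no more than 1.80 CPM in the *Cxcl1*-led and 3.48 CPM in the *Angptl7*-led subset. In these first 3 subsets *Abcb1a* was above its level in perineurial-like cells of either sample (79.7 and 75.1 CPM). *Cldn1* was highest in the *Cxcl1*-led (100 and 120 CPM) and *Angptl7*-led (112 and 131 CPM) subsets and lowest in the *Dio2*-led subset (1.15 and 4.14 CPM). The *Pi16*-led and *Slc26a7*-led subsets had both genes, with 53.4 and 33.5 CPM and 44.3 and 51.7 CPM of *Cldn1*. Immediate early genes (*Junb*, *Btg2*, *Ier2*, *Egr1*) were among the leading genes of the *Cxcl1*-led subset. *Abcb1b* was at most 18.2 CPM in any of the 5 subsets.

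**Figure D2:**
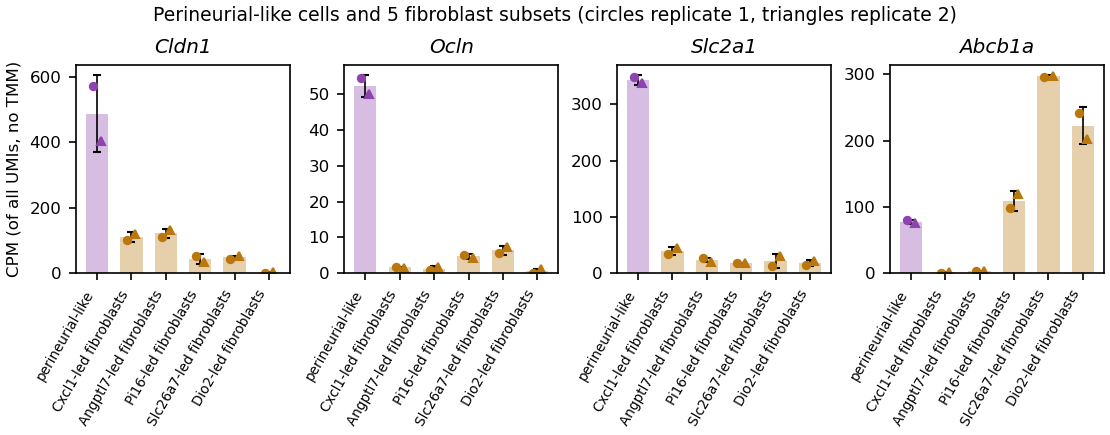
Levels of *Cldn1*, *Ocln*, *Slc2a1* and *Abcb1a* in perineurial-like cells and 5 fibroblast subsets, in CPM of all UMIs without TMM factors; bars are means of 2 replicates, error bars SD, circles replicate 1 and triangles replicate 2. *Cldn1*, *Ocln* and *Slc2a1* are highest in perineurial-like cells, while *Abcb1a* is highest in the *Slc26a7*-led fibroblasts (296 and 298 CPM).

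Per cell, perineurial-like cells mostly held *Cldn1*. A *Cldn1* UMI was found in 54 of 57 and 97 of 108 of them, in 176 of 440 and 273 of 603 fibroblasts, and in 5 of 172 and 3 of 185 endothelial cells. *Ocln* UMIs were in 28 of 57 and 46 of 108 perineurial-like cells, against 11 of 440 and 17 of 603 fibroblasts, at median depths of 11719 and 12030.5 against 12084 and 12231 UMIs. Thinned to 1000 UMIs, the share of perineurial-like cells with *Cldn1* was 45.6% (95% exact binomial interval 32.4% to 59.3%) and 27.8% (19.6% to 37.2%). An *Mfsd2a* UMI was found in 0 of 57, which allows a share of cells with a UMI of up to 5.26%, and in 5 of 108 perineurial-like cells without thinning.

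Clustering the endothelial cells alone, again without the members, gave 3 subsets. Each name rests on the listed markers among the leading genes of a subset, and the other listed markers of that name were not among them. In an arterial-like subset (55 and 92 cells) these were *Gja4*, *Unc5b*, *Sema3g* and *Bmx*. In a capillary-like subset (91 and 72 cells) they were *Car4*, *Gpihbp1* and *Cd300lg*. In a venous-like subset (26 and 21 cells) they were *Selp*, *Lrg1*, *Icam1*, *Vwf*, *Sele* and *Vcam1*. With cells from the clustering at resolution 1.2, the capillary marker *Cxcl12* was among the leading genes of the arterial-like subset. *Gpihbp1* did not separate capillary-like (339 and 394 CPM) from venous-like cells (180 and 348 CPM), whose samples overlapped. The immediate early genes *Ier2*, *Btg2* and *Egr1* were also among the leading genes of the arterial-like subset. A finer setting gave 97 cells led by *Egr1* that carried no subset name, 55 arterial-like, 158 capillary-like and 47 venous-like cells. The main setting had 147 arterial-like, 163 capillary-like and 47 venous-like cells, so most arterial-like cells did not keep that name. The venous-like subset included 3 and 2 cells with UMIs of at least 4 of 6 lymphatic markers. Across the subsets 7 of the 8 members passed the filter. *Cldn1*, with 12 UMIs in all, did not.

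The levels of *Mfsd2a* and *Abcb1a* were high in capillary-like and arterial-like cells, and that of *Plvap* was highest in venous-like cells. *Mfsd2a* was at 753 and 664 CPM in arterial-like, 605 and 688 CPM in capillary-like and 2.61 and 3.03 CPM in venous-like cells, where it had 1 UMI in each sample. *Abcb1a* was at 1517 and 1621 CPM, 1300 and 1453 CPM, and 198 and 188 CPM in the same order. *Plvap* ran the other way, from 116 and 107 CPM in arterial-like through 293 and 204 CPM in capillary-like to 1084 and 1215 CPM in venous-like cells. For these 3 genes, no sample of the venous-like subset overlapped with a sample of the others.

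*Slc2a1* fell in steps along the same order, from 772 and 935 CPM in arterial-like to 315 and 393 CPM in capillary-like and 62.6 and 60.6 CPM in venous-like cells. *Cldn5* was at 3053 and 3306, 2161 and 1967, and 534 and 294 CPM. Of the 205 and 97 *Cldn5* UMIs of venous-like cells, 62 and 38 came from the 3 and 2 lymphatic-marker cells. *Tjp1* was at 1240 and 1675, 1082 and 1049, and 467 and 376 CPM. *Ocln*, at 26.7 and 30.4, 10.6 and 7.02, and 26.1 and 0 CPM, had 10 UMIs in venous-like cells of replicate 1 and none in replicate 2.

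**Figure D3:**
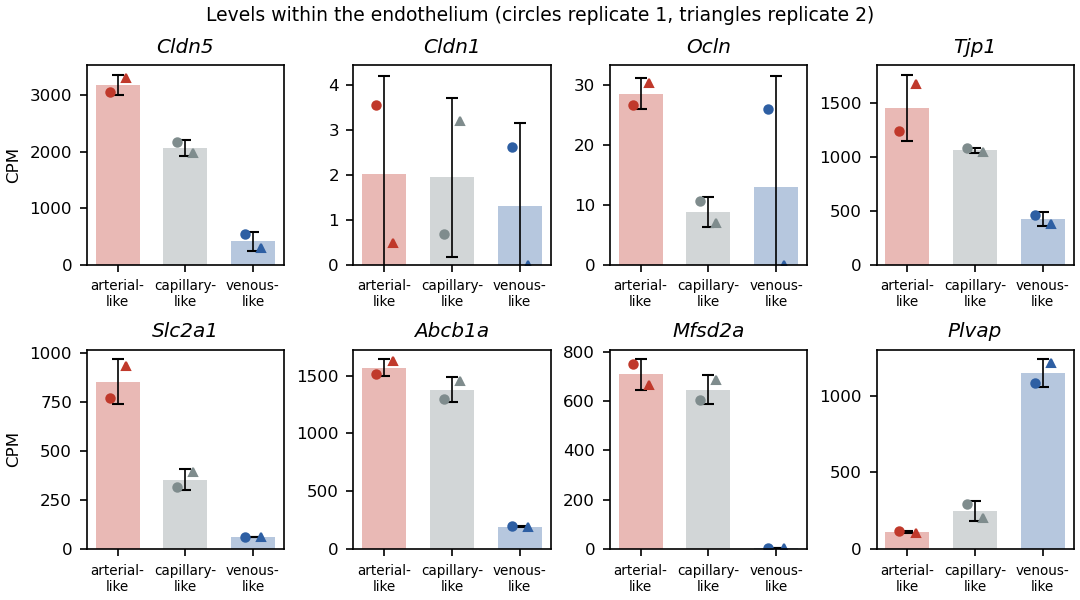
Levels of the 8 members in arterial-like, capillary-like and venous-like endothelial cells, in CPM after TMM on an axis of its own per gene; bars are means of 2 replicates, error bars SD, circles replicate 1 and triangles replicate 2. *Plvap* is highest in venous-like cells (1084 and 1215 CPM), where *Mfsd2a* is near 0.

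Over the 10377 genes tested among the subsets, 9.15% were higher and 7.29% lower in venous-like cells than in the mean of the other subsets. Of the members 1 was higher, *Plvap*, by 2.78 on the log2 scale (SE 0.14), and 5 were lower. *Mfsd2a* had so few UMIs in venous-like cells that a ratio is given: per UMI counted it was 249-fold (counting interval 68.7 to 2053) higher in arterial-like and 239-fold (66.1 to 1976) higher in capillary-like cells. *Slc2a1* was lower by 3.15 (SE 0.20), *Abcb1a* by 2.93 (SE 0.13), *Cldn5* by 2.62 (SE 0.19) and *Tjp1* by 1.56 (SE 0.15). *Ocln* was not called (-0.20, SE 0.67). These directions and calls were the same without the lymphatic-marker cells.

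In arterial-like cells 7.88% of genes were higher and 5.21% lower than in the mean of the other subsets, against 5 and 1 members. *Mfsd2a* (4.03, SE 0.20), *Slc2a1* (2.53, SE 0.14), *Cldn5* (1.78, SE 0.15), *Abcb1a* (1.61, SE 0.10) and *Tjp1* (1.12, SE 0.13) were higher and *Plvap* was lower by 2.26 (SE 0.16). The arterial-like cells of the finer setting, 18 and 37 cells, had 10.1 and 12.8 CPM of *Plvap*, which is the level of empty droplets (11.7 and 10.1 CPM), and 1178 and 1408 CPM of *Slc2a1*. These levels are given without a test.

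In capillary-like cells 3.65% of genes were higher and 4.44% lower, against 4 and 0 members. The members were *Mfsd2a* (3.83, SE 0.20), *Abcb1a* (1.32, SE 0.10), *Cldn5* (0.84, SE 0.15) and *Slc2a1* (0.62, SE 0.15, adjusted p = 0.026). *Plvap* differed by -0.52 (SE 0.15, adjusted p = 0.056) and was lower with the replicate as a block (-0.54, adjusted p = 0.039). At the finer setting the *Egr1*-led cells were a group of their own and counted among the others in the mean. The capillary-like values there turned to 0.85 for *Plvap* and -0.20 for *Slc2a1*, and *Cldn5* fell to 0.31. Only replicate 2 had enough arterial-like cells in that fit, so effect sizes alone are given. The contrast with the mean of arterial-like and venous-like cells spans cells on both sides, so the direct pair was added after the data were seen. Against arterial-like cells 1.28% of genes were higher and 3.5% lower in capillary-like cells, and of the members *Plvap* was higher by 1.16 (SE 0.18, adjusted p = 0.0028) and *Slc2a1* lower by 1.27 (SE 0.15, adjusted p = 5.3e-04). *Abcb1a* (-0.19, SE 0.11) and *Mfsd2a* (-0.13, SE 0.13) were not called in this pair.

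The split was also seen cell by cell. All 26 and 21 venous-like cells had a *Plvap* UMI, with medians of 13.5 and 15 UMIs per cell, while 1 cell of each replicate had an *Mfsd2a* UMI. An *Abcb1a* UMI was present in 19 of 26 and 17 of 21 venous-like cells, at medians of 2.5 and 2 UMIs, and in all 147 arterial-like and all 163 capillary-like cells. Venous-like cells made up 15.1% and 11.4% of endothelial cells and held 11.8% and 9.15% of endothelial UMIs, but 40.7% and 45.4% of the *Plvap* UMIs. Capillary-like cells held 43.5% and 29.5% of these UMIs and arterial-like cells 15.8% and 25.1%. Thinned to 1000 UMIs, 65.4% (95% exact binomial interval 44.3% to 82.8%) and 66.7% (43.0% to 85.4%) of venous-like cells kept a *Plvap* UMI, 18.7% (11.3% to 28.2%) and 25% (15.5% to 36.6%) of capillary-like and 12.7% (5.27% to 24.5%) and 11.96% (6.12% to 20.4%) of arterial-like cells. No venous-like cell kept an *Mfsd2a* UMI, which allows a share of cells with a UMI at this depth of up to 11.5% and 14.3% and does not limit the share that express the gene.

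*Plvap* and *Mfsd2a* were not exclusive in capillary-like cells. A *Plvap* UMI was found in 59 of 91 and 47 of 72 of them, and 52 and 42 of these cells also had an *Mfsd2a* UMI. All of them had an *Abcb1a* UMI. In arterial-like cells 24 of 55 and 39 of 92 had a *Plvap* UMI, and 24 and 35 of these had *Mfsd2a* as well. Across the endothelium, 35 and 36 cells had no *Mfsd2a* UMI, 25 and 20 of them venous-like, and these cells held 972 and 893 CPM of *Plvap* against 212 and 139 CPM in cells with one. They were also shallower, with medians of 9617 and 10668 against 17815 and 18859 UMIs. The 7 and 4 endothelial cells without an *Abcb1a* UMI were all venous-like.

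**Figure D4:**
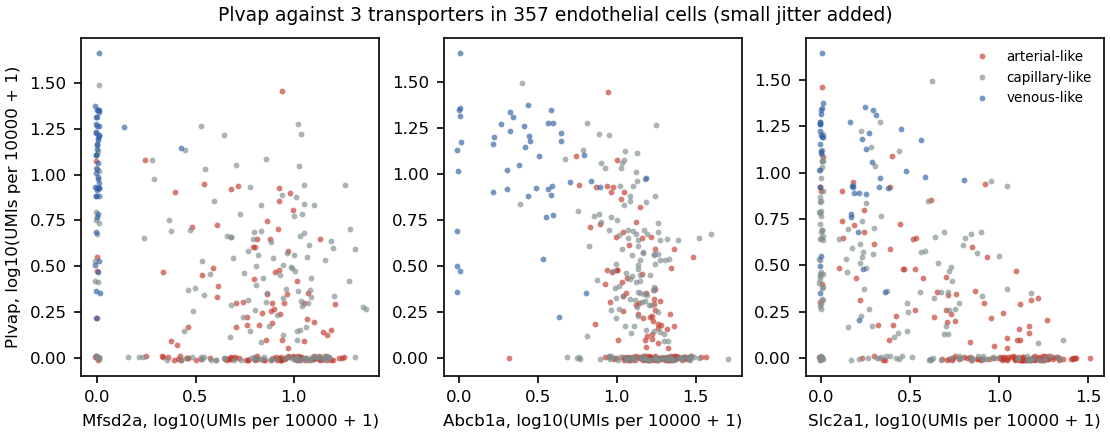
Each point is 1 of 357 endothelial cells, placed by its *Plvap* level (y axis) and its *Mfsd2a*, *Abcb1a* or *Slc2a1* level (x axes), each as log10(UMIs per 10000 + 1) with a small jitter and colored by subset. All venous-like cells but 1 of each replicate line up at an *Mfsd2a* level of 0. Their *Plvap* level is mostly high but varies widely, and capillary-like cells spread over both genes.

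The 5 lymphatic-marker cells were too few for a test. They had 1255 and 1315 CPM of *Cldn5* and 506 and 208 CPM of *Plvap*, and no UMI of *Abcb1a* or *Mfsd2a* in either sample.

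Within the glia, *Mfsd2a* varied between clusters. SGCs of the *Hes5* and *Acsbg1* cluster had 145 and 149 CPM, while the other 3 SGC clusters lay between 58.7 and 114 CPM. Among myelinating Schwann cells the 3 clusters lay between 49.0 and 86.1 CPM. A *Mfsd2a* UMI was found in 58.2% and 65.3% of SGCs, and in 7.93% (95% exact binomial interval 7.06% to 8.88%) and 9.0% (8.05% to 10.0%) after thinning to 1000 UMIs, against 0 of 57 and 0 of 108 perineurial-like cells. *Slc2a1* was highest in the same SGC cluster, with 66.1 and 63.6 CPM.

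Other barrier genes were read from 4 lists of 103 genes that leave out the members. In the endothelium 13 of 25 tested tight junction genes were higher and 6 lower against the average of the remaining types, where 27.7% of all genes were higher and 23.6% lower, so the lower count was near the share over all genes. *Esam*, an endothelial adhesion molecule, was at 748 and 730 CPM (log2 difference 8.07), but mural cells also had 221 and 256 CPM. The tricellular junction gene *Lsr* was at 66.7 and 77.6 CPM and *Cldn15* at 7.44 and 9.60 CPM. *Cldn19*, a claudin of myelinating Schwann cells (542 and 531 CPM there), and the polarity gene *Pard3* were lower, at 2.68 and 1.87 CPM and at 37.2 and 38.4 CPM, and *Cldn3* had no UMI, at least 42.1-fold below myelinating Schwann cells. The median log2 difference over the list was 0.61, against -0.06 over all genes tested.

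Of 29 barrier transport genes 20 were higher in the endothelium and 5 lower, with a median of 2.05. The organic anion transporter *Slco1a4* was at 1187 and 1162 CPM, the efflux pump *Abcg2* at 1535 and 1570 CPM and the amino acid transporter *Slc7a5* at 362 and 310 CPM, with log2 differences of 9.44, 6.37 and 6.01. *Slc27a1*, *Slc1a4* and *Slc19a1* were lower. Of 20 Wnt and Norrin signaling genes 16 were higher and 1, *Reck*, lower, with a median of 4.85 (4.71 with types at 0 set to 3 counts). *Foxq1* was at 36.6 and 84.3 CPM, *Sox17* at 402 and 451 CPM and *Sox7* at 63.1 and 67.2 CPM, all transcription factor genes of endothelial cells. Of 20 genes of caveolae, fenestrae and transcytosis 17 were higher and 3 (*Lrp1*, *Vegfa* and *Pacsin2*) lower, with a median of 2.65. *Aplnr* (59.2 and 70.4 CPM), *Flt4* (51.2 and 45.6 CPM) and *Esm1* (81.9 and 76.8 CPM) led that list. The list is wider than its name, since it also holds genes of vascular signaling such as *Aplnr*, *Flt4*, *Nrp1* and *Vegfa*.

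In perineurial-like cells, where 15.6% of all genes were higher and 13.1% lower, 12 of 25 tight junction genes were higher and 3 lower. *Cldn22* was at 60.3 and 70.3 CPM against at most 4.71 CPM elsewhere, *Cldn11*, a claudin also known from myelin of the brain, at 324 and 371 CPM, and *Cgn*, a junction adaptor, at 7.23 and 8.38 CPM from 6 and 13 UMIs. *Jam3*, *Mpdz* and *Cldnd1* were lower. Of 29 transport genes 8 were higher and 7 lower, among them the lactate transporter *Slc16a1* at 269 and 258 CPM and *Slco2b1* at 107 and 50.3 CPM on the higher side, and *Slc2a3*, *Slc1a4* and *Tfrc* on the lower. *Slc22a8* was called higher on 6 UMIs. Of 20 Wnt and Norrin genes 3 were higher (*Adgra2*, *Fzd4*, *Ctnnb1*), a share near that over all genes, and 4 lower, among them *Nkd1*, *Apcdd1* and *Ndp*, which had no UMI, at least 7.81-fold below SGCs. Of the 20 genes of the caveolae list 10 were higher, led by *Cavin2* (276 and 255 CPM), *Cav1* (868 and 805 CPM) and *Cavin1* (568 and 482 CPM), and 5 were lower. Some of the named genes reached as much or more in another type. *Cavin2* (397 and 456 CPM), *Fzd4* (150 and 164 CPM), *Ctnnb1* (452 and 452 CPM) and *Slc22a8* (3.27 and 2.93 CPM) were higher in the endothelium. *Slco2b1* (221 and 197 CPM) was higher in macrophages, and mural cells had 541 and 582 CPM of *Cavin1*. The other named genes on the higher side were highest in perineurial-like cells. The list medians were 0.70, 0.26, -0.72 and 0.58 against -0.12 over all genes, and with types at 0 set to 3 counts the Wnt and Norrin median was 0.14.

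Within the endothelium the lists differed between the subsets in their counts, to be read against the shares of all genes higher and lower, which were 7.88% and 5.21% in arterial-like, 3.65% and 4.44% in capillary-like and 9.15% and 7.29% in venous-like cells. In arterial-like cells 14 of 23 transport genes were higher and 2 lower, and 9 of 19 Wnt and Norrin genes higher and 1 lower. In capillary-like cells the counts were 9 and 1, and 5 and 2, and the median log2 difference of the Wnt and Norrin list was 0.24, against 1.24 in arterial-like cells. In venous-like cells 13 of 23 transport genes were lower and 3 higher, and 8 of 19 Wnt and Norrin genes lower and 3 higher. Of the 20 genes of the caveolae list 9 were higher and 3 lower there. That list had 1 higher and 7 lower genes in arterial-like cells and 1 higher and 5 lower in capillary-like cells. Of 15 tight junction genes 4 were higher and 1 lower in arterial-like, 6 and 2 in capillary-like, and 3 and 6 in venous-like cells. Venous-like cells had no UMI of *Ildr2*, a tricellular junction gene, of *Nkd1*, a Wnt target gene, or of *Foxq1*, which put these at least 29.1-fold, 18.7-fold and 23.9-fold below arterial-like cells and at least 27.8-fold, 32.0-fold and 8.07-fold below capillary-like cells. *Slc7a1*, a cationic amino acid transporter gene, was at 553 and 594 CPM in capillary-like and 547 and 588 CPM in arterial-like cells.

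The genes whose pattern was most like each member were taken by Pearson correlation of log2(CPM + 1) over 18 profiles, which are 9 types from 2 shared libraries, so each value is a description. *Cldn5* was closest to *Sox17* (r = 0.995) and *Plvap* to *Gimap5* (r = 0.959), *Selp* (r = 0.953) and *Lrg1* (r = 0.953). *Mfsd2a* was closest to *Sema3g* (r = 0.970), *Abcb1a* to *Vegfc* (r = 0.974) and *Tjp1* to *Ctnnb1* (r = 0.978). *Cldn1* was closest to *Pkdcc* (r = 0.952), *Ocln* to *Cavin2* (r = 0.952) and *Slc2a1* to *Plk2* (r = 0.910). Among the members themselves, r was 0.918 between *Cldn5* and *Plvap*, 0.819 between *Ocln* and *Abcb1a*, and -0.52 between *Cldn1* and *Mfsd2a*.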

How the data were processed

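The deposited matrices hold UMI counts per gene and barcode for all barcodes, made by the authors with Cell Ranger (7.1.0 in the file headers) against mm10, and were not normalized. They sum to 119101743 and 128668771 UMIs. Whether the authors counted intron reads or used strand was not given in the sources used here.

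Here, cells were called as in Cell Ranger, with the RNA profile of empty droplets taken from barcodes ranked 45000 to 90000, and 8809 and 8774 cells with over 300 genes were kept. The study's own cell calls were not used here. Counts were normalized with SCTransform (sctransform 0.4.2, Seurat 5.3.0, R 4.3.3), using 3000 variable genes without members or list genes, 30 components and resolution 0.8. Within the endothelium and connective tissue they were normalized again, with fewer variable genes and components and resolution 0.4. Clusters under 1000 mean genes, mixed or mitochondrial clusters, and cells past the median plus 5 median absolute deviations (of UMIs within a cluster) were left out. Scrublet (scanpy 1.11.5) called 2.74% and 3.18% of cells doublets, which stayed in. UMIs were summed per sample and type (at least 20 cells), and genes reaching 10 counts in 2 or more profiles were tested with edgeR 4.0.16 (quasi-likelihood, TMM, Benjamini-Hochberg adjusted over all genes tested, threshold 0.05), with DESeq2 1.42.0 as an alternative. Intervals and limits of 3 counts cover counting error only. In every type the replicates differed beyond counting noise, with chi-square values of 2.18 to 6.62 for each degree of freedom.

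Types of 1 replicate come from the same dissociation, which pairs them. Deviations of same-numbered profiles had a median correlation of 0.0945 over 36 pairs of types and 0.0331 over 3 pairs of subsets. The values ranged from -0.0578 to 0.362 for types, with 15 pairs above 0.1, and from -0.0200 to 0.175 for subsets. Some types thus shared variation within a library, which the main test leaves out. In simulated counts the test recovered 96% of 4-fold and 84% of 2-fold changes in endothelial cells against the mean of others (17432 genes). The rates were 96% and 75% in perineurial-like cells (17423 genes), and 94% and 68% in venous-like cells (10036 genes). Of the calls, 1.1%, 2.29% and 4.14% in the same order fell on unchanged genes. The rates rest only on the genes that were given a change, not on all genes in parentheses. They do not cover variation shared within a library, or members with few UMIs in the compared group.

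The members and lists were chosen with earlier results of these data known. Named genes were up to 3 per list and direction with the largest difference among those past the threshold in the same direction in both samples, up to 3 list genes per endothelial subset, the 3 genes most like each member (the text prints the first, and all 3 for *Plvap*), and cell type markers. Levels of *Abcb1b* and of the fibroblast, glial and finer endothelial clusters were added after the data were seen. Of 32285 gene identifiers 32158 were found in GENCODE M21. Alternatives were the settings listed at the end.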

Additional observations from a re-analysis of the deposited data

Results flagged for a closer look

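Members were also counted in clusters that took no part in the comparisons, and 7 values of members there lay above the empty droplets in both samples. A shallow cluster led by *Lyz2*, *Cd74* and *Cd52* (144 and 252 cells kept, median 1216.5 UMIs before the cutoffs on cells), which no marker list named, had mean levels of 430 CPM of *Cldn5* (629 and 231 CPM in replicates 1 and 2), 178 CPM of *Mfsd2a*, 148 CPM of *Tjp1*, 127 CPM of *Slc2a1* and 114 CPM of *Abcb1a*. Its 7 and 2 UMIs of *Ocln* gave 33.6 and 5.51 CPM, against 3.39 and 3.65 CPM in empty droplets. *Flt1* was the endothelial marker among its leading genes. A cluster of 23 and 31 cells led by *Cd74*, *H2-Aa* and *H2-Eb1* had a mean of 125 CPM of *Cldn1* (106 and 144 CPM), and 0 and 1.44 CPM of *Cldn5*. The part of cells of other types in these values was not tested.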

How the results depend on the processing

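Of 488 log2 differences of members under the alternatives, 470 kept their direction and their side of the threshold, 11 passed the threshold only under an alternative, 4 lost it and 3 changed sign. Taking cells by their own marker UMIs changed most: the fit then had no neurons of replicate 2, 896 genes were lower in perineurial-like cells, 0 members were lower (*Mfsd2a* -0.45), 1 member was lower in endothelial than in perineurial-like cells, and *Abcb1a* against fibroblasts was 1.37. Members lower in perineurial-like cells were 2 with no filter on low counts, with the replicate block and without doublets. Against fibroblasts, 1 member, *Abcb1a*, was lower with no filter (-0.46, adjusted p = 0.033). Arterial-like genes higher numbered 515 with DESeq2 and 361 at subset resolution 0.8 (331 lower), where replicate 2 alone had enough arterial-like cells and was assumed to vary like the others. Capillary-like genes numbered 614 higher with no filter and 246 lower at resolution 0.8, where *Slc2a1* was -0.20 and *Plvap* 0.85. *Plvap* was the 1 member lower in capillary-like cells with no filter, with the replicate block, without doublets and without lymphatic-marker cells, where *Slc2a1* lost its call (0.57, adjusted p = 0.052). The cause was not tested. The replicate block changed no other call of a member. Leaving out a replicate gives values without a test: 73 of 106 differences moved by less than the spread, and those against groups with 0 to 5 UMIs moved most. Of the levels, 12 of 34 moved by more than 1 SD without TMM, which with 2 samples is a narrow measure. Depth limits *Ocln* and *Cldn1* in the endothelium, and *Cldn5*, *Mfsd2a* and *Plvap* in perineurial-like cells.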
